A study of Homo sapiens with 9 samples.

Results

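Aminoacyl-tRNA synthetases are the enzymes that load each amino acid onto its tRNA. Their mRNAs were followed here in undifferentiated Caco-2 (uCaco-2) cells after 24 h with 300 μM cobalt(II) chloride (CoCl2), with 5 μM of the oxyquinoline derivative (OD) 4896-3212, or with neither. The members were the rows of the deposited count table with a symbol of 1 letter followed by ARS and at most 1 of the digits 1 to 3, together with EPRS1, FARSA and FARSB. This gave 38 genes of 60591 symbols. A symbol ending in 2 put 17 of them in the mitochondrial set and the other 21 in the cytosolic set, and all 38 passed the filter on low counts.

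Most amino acids have a synthetase for the cytosol and a separate nuclear-encoded synthetase that is imported into mitochondria. GARS1 and KARS1 serve both compartments from the same gene, EPRS1 carries the glutamate and proline activities of the cytosol in a single chain, and mitochondria obtain glutaminyl-tRNA by amidation of glutamyl-tRNA, with EARS2 making the precursor. Several cytosolic enzymes sit in a multisynthetase complex held together by the scaffold proteins AIMP1, AIMP2 and EEF1E1. Many cytosolic synthetase genes are textbook targets of ATF4, the transcription factor of the integrated stress response, and both treatments of the study are used to activate the hypoxia-inducible factor (HIF) pathway.

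Caco-2 is an established line from a colorectal adenocarcinoma, and the study asked how its undifferentiated cells respond to 2 chemical activators of HIF signalling. The 3 groups, Control, CoCl2 and OD, each had 3 libraries described as biological replicates, and all groups, controls included, received 0.5% DMSO for 24 h, since the OD stock was made in DMSO. All libraries came from the same line, and 1 dose and 1 time were used per agent, so the values describe that dose and time alone. Of 10 intestinal epithelial markers, 9 passed the filter and CDX1 had 0 counts in every library. In the control libraries the epithelial adhesion gene EPCAM stood at 752 ± 22.8 CPM and the keratin gene KRT8 at 4983 ± 163 CPM (mean ± SD, n = 3). With CoCl2, 7 of the 9 rose by adjusted p alone and 2 fell, KRT20 (log2 fold change -1.44, SE 0.20) and the microvillus gene VIL1 (log2 -2.45, SE 0.044), while 1 rose and 7 fell with library size alone. With OD, 4 rose and 3 fell. The summed level of the 9 was 11205 to 11723 CPM in control, 13549 to 14506 CPM with CoCl2 and 10608 to 11173 CPM with OD. Markers of other cell types were low. Of the leukocyte markers, PTPRC and CD3E had at most 6 counts in any library, and CD14 had 35 to 101 counts and was lower with OD (log2 -1.08, SE 0.16). Of 6 fibroblast markers 4 were tested, together at 22.9 to 26.8 CPM in control, 18.3 to 20.8 CPM with CoCl2 and 31.9 to 33.3 CPM with OD. They were COL1A1 (135 to 480 counts), COL3A1 (74 to 150), PDGFRB (8 to 127) and LUM (2 to 32). With CoCl2, PDGFRB (log2 -2.31, SE 0.20) and COL1A1 (-0.49, SE 0.096) fell and COL3A1 rose (0.69, SE 0.12). With OD, LUM (log2 1.78, SE 0.35) and COL1A1 (0.59, SE 0.081) rose and COL3A1 fell (-0.40, SE 0.14). Of 4 endothelial markers, the 2 tested summed to 2.20 to 3.13 CPM over the libraries. With CoCl2, VWF (6 to 20 counts) rose (log2 1.61, SE 0.36) and PECAM1 (20 to 55 counts) fell (-0.80, SE 0.22). The part of these shifts in the results on the synthetases was not tested.

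Totals ranged from 15998136 to 18298190 counts in the control libraries, from 16286502 to 24209427 with CoCl2 and from 16387054 to 19623776 with OD. Levels are counts per 1000000 (CPM) of the library size after scaling with trimmed mean of M-values (TMM) factors, and fold changes are log2 values from edgeR's quasi-likelihood test over all 9 libraries, with p-values adjusted over 15944 tested symbols. The TMM factors were 1.11 to 1.12 for the control libraries, 0.770 to 0.795 with CoCl2 and 1.14 to 1.15 with OD, so the scaling weighs on every CoCl2 value. With library size alone the median log2 fold change of all tested genes moved from -0.049 to -0.55 for CoCl2 against control and from -0.054 to -0.60 for CoCl2 against OD, and from -0.010 to 0.029 for OD against control. The share of called genes that were higher moved from 46.0% to 23.9% for CoCl2 against control, from 42.4% to 18.3% for CoCl2 against OD and from 68.6% to 72.7% for OD against control. Directions that turn with that scaling are given beside each gene. In these bulk samples, fewer cells of a kind and less RNA per cell cannot be told apart.

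Because many cytosolic synthetases are textbook ATF4 targets, promoters were searched for TGATGNAA, the letters of the C/EBP-ATF response element, on both strands. RefSeq promoters (GRCh38.p14, 250 bases before to 50 after the start, first listed window of each gene) were found for 30 of the 38 members. The letters were present in 6 of 16 cytosolic promoters (37.5%) and in 1 of 14 mitochondrial promoters (7.1%), against 2.5% of 15843 protein-coding promoters of the same length. These 7 windows are shown because they let the shared letters be read, in capitals, within their surroundings. They are read 5′ to 3′ along each gene, and in 5 of them the capitals are the reverse complement of the searched letters.
TARS1: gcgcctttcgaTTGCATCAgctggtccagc
IARS1: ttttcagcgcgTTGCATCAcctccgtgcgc
CARS1: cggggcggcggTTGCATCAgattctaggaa
MARS1: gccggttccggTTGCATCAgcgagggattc
AARS1: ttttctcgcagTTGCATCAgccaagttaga
NARS1: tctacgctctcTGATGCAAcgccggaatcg
YARS2: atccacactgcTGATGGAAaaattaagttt

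The windows lie at chr5:33440956-33440985 (plus strand) for TARS1, chr9:92293692-92293721 (minus) for IARS1, chr11:3057407-3057436 (minus) for CARS1 and chr12:57488053-57488082 (plus) for MARS1. The others are at chr16:70289675-70289704 (minus) for AARS1, chr18:57621804-57621833 (minus) for NARS1 and chr12:32756076-32756105 (minus) for YARS2. The first capital lies 13 bases before the RefSeq start in IARS1, 4 before it in MARS1 and 2 before it in CARS1, and it is base 3 in TARS1 and base 15 in NARS1 with the start counted as base 1. The 6 cytosolic windows hold the same 8 letters or their reverse complement, with C at the free base, whereas YARS2 has G there. In AARS1 and YARS2 the letters lie 187 and 197 bases before the RefSeq start. All 6 cytosolic windows, that of AARS1 included, lie within the GENCODE 44 gene, and that of YARS2 lies outside it. The distances therefore hold for the first listed RefSeq start alone. The core of the NRF1 site, GCGCATGC, which is linked to nuclear genes of mitochondrial proteins, was in 0 of 16 cytosolic and 2 of 14 mitochondrial promoters (MARS2 and YARS2), against 4.3% of all. The hypoxia response element core ACGTG was in 3 of 16 cytosolic and 5 of 14 mitochondrial promoters, against 23.7% of all. Its form GCGTG was in 12 and 11 of them, against 44.1% of all. A match describes the letters only, and binding was not measured.

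Per kilobase of the canonical GENCODE transcript, the synthetase mRNAs of the control cells spanned more than 3 orders of magnitude with VARS2 included. The cytosolic set was the more abundant by its median. KARS1, the lysyl enzyme of both compartments, was highest at 237 ± 3.08 CPM per kilobase, followed by AARS1 at 132 ± 3.82, TARS1 at 123 ± 1.66 and GARS1 at 122 ± 2.85 (SD, n = 3). TARS1 and GARS1 did not differ beyond their spread. IARS2, the mitochondrial isoleucyl enzyme, was the highest of its set at 92.1 ± 1.47 and level with QARS1 at 92.5 ± 3.38. The lowest cytosolic member was TARS3 at 3.98 ± 0.0482. VARS2 was lowest of all at 0.145 ± 0.0464, from 4 to 15 counts in each library, followed by SARS2 at 1.71 ± 0.187 and PARS2 at 3.09 ± 0.235. Of the exonic bases, 62.98% in VARS2 and 48.16% in SARS2 overlap another gene of the same strand. The part of this overlap in their low levels was not tested. The set median was 56.4 for cytosolic and 14.3 for mitochondrial members in the control libraries, 66.2 and 7.00 with CoCl2, and 59.1 and 8.67 with OD.

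**Figure D1:**
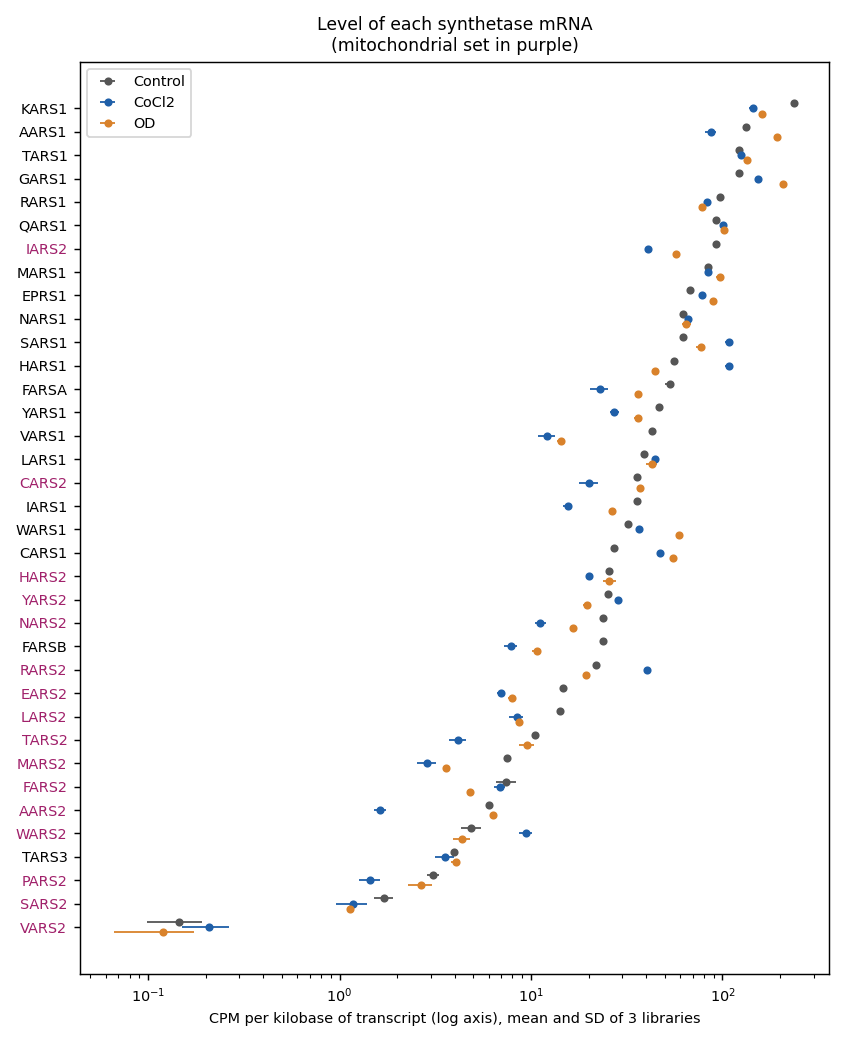
Level of each synthetase mRNA in CPM per kilobase of transcript (x axis, log scale), 1 row for each of 36 members in order of the control level, with mitochondrial members named in purple. Points are means and bars SDs of the 3 libraries of Control (grey), CoCl2 (blue) and OD (orange). The control level runs from 237 ± 3.08 for KARS1 to 0.145 ± 0.0464 for VARS2, and the blue point of AARS2 lies far left of its grey one. Most exonic bases of VARS2 overlap another gene of the same strand.

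Against control, CoCl2 lowered the mRNAs of most mitochondrial synthetases, while the cytosolic set split into genes that rose and genes that fell. At adjusted p under 0.05 and a change of more than 2-fold, 8 of 17 mitochondrial members were lower (AARS2, EARS2, IARS2, MARS2, NARS2, PARS2 and TARS2 among them) and 0 were higher. The same call took 4 of 21 cytosolic members lower (FARSA, FARSB, IARS1 and VARS1) and 0 higher. With edgeR's unadjusted p under 0.05 or with DESeq2, the counts higher by more than 2-fold were 0 as well. Of all tested genes, 23.4% were called lower and 19.9% higher by this rule. By adjusted p alone, 12 mitochondrial members fell and 3 rose (RARS2, WARS2 and YARS2), and 9 cytosolic members fell and 8 rose, against 42.8% lower and 40.4% higher among all genes. With library size alone these counts were 14 and 2 for the mitochondrial set and 18 and 3 for the cytosolic set. The median log2 fold change was -0.83 in the mitochondrial set and 0.0011 in the cytosolic set, where it was -0.50 with library size alone, beside -0.049 over all genes. The libraries of the 2 groups did not overlap in 33 of 38 members, against 83.4% of all genes, and an exact two-sided permutation test of 3 against 3 libraries cannot go below p = 0.1.

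OD changed fewer synthetases by more than 2-fold. By that rule 1 cytosolic member was higher (CARS1), 2 were lower (FARSB and VARS1), and 1 mitochondrial member was lower (MARS2), where 9.09% of all genes were called higher and 4.16% lower. By adjusted p alone, 10 cytosolic members rose and 8 fell, whereas 0 mitochondrial members rose and 10 fell. Among all genes 32.3% were higher and 33.3% lower by that rule. The 7 mitochondrial members that did not pass in either direction had log2 fold changes from -0.22 (PARS2) to 0.071 (AARS2). By edgeR's unadjusted p and by DESeq2, 0 mitochondrial members were higher too. The median log2 fold change was 0.053 in the cytosolic and -0.36 in the mitochondrial set, beside -0.010 over all genes, and 30 of 38 members did not overlap between the groups, against 68% of all genes. Both treatments were compared with the same 3 control libraries, so their values are set side by side and not counted as separate support.

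**Figure D2:**
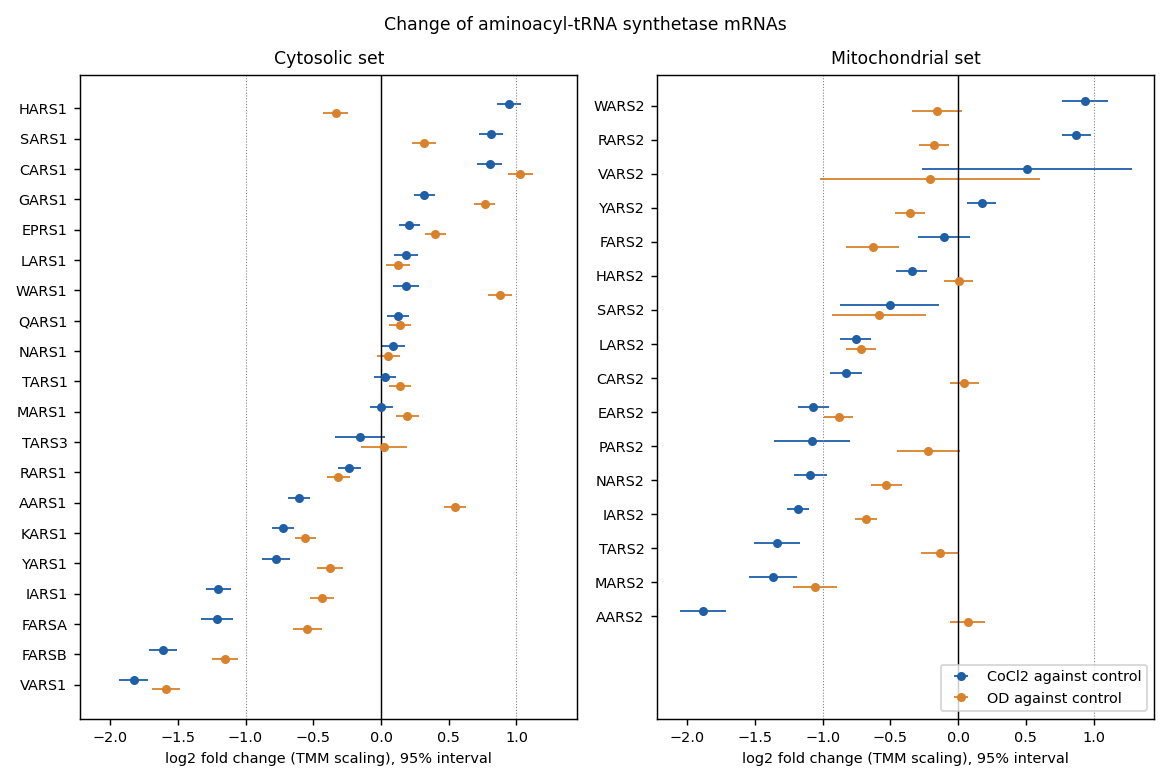
Log2 fold change of 36 members (x axis, TMM scaling) with its 95% interval, for CoCl2 against control (blue) and OD against control (orange), in the cytosolic set (left) and the mitochondrial set (right), with dotted lines at a 2-fold change. Most blue points on the right lie below 0, with AARS2 at -1.88, while those on the left run from -1.82 (VARS1) to 0.94 (HARS1).

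AARS2, the mitochondrial alanyl-tRNA synthetase, was at 29.3, 29.5 and 28.1 CPM in the control libraries, 7.28, 7.74 and 8.44 CPM with CoCl2 and 29.9, 30.3 and 31.3 CPM with OD. CoCl2 libraries stood far below the others, and the OD libraries lay just above the controls. AARS2 fell under CoCl2, with a log2 fold change of -1.88 (SE 0.085, edgeR adjusted p = 6.78e-30), and OD gave 0.071 (95% interval -0.058 to 0.20, edgeR adjusted p = 0.336). Its cytosolic counterpart AARS1 was at 468, 442 and 452 CPM in the control libraries, 295, 281 and 318 CPM with CoCl2 and 668, 648 and 674 CPM with OD. Here the 3 groups separated in the order CoCl2, control, OD. AARS1 fell with CoCl2, with a log2 fold change of -0.60 (SE 0.042, edgeR adjusted p = 7.09e-21), and rose with OD, with 0.55 (SE 0.041, edgeR adjusted p = 7.30e-19).

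MARS2, the mitochondrial methionyl enzyme, which also serves the initiator of mitochondrial translation, was at 22.4, 22.5 and 23.1 CPM in the control libraries, 8.34, 7.89 and 9.81 CPM with CoCl2 and 10.6, 10.8 and 11.3 CPM with OD. Both treatments lay below every control library, and they did not overlap each other. MARS2 changed by -1.37 (SE 0.089, edgeR adjusted p = 6.06e-22) on the log2 scale under CoCl2 and by -1.05 (SE 0.081, edgeR adjusted p = 3.64e-18) under OD, which made it the only mitochondrial member called by the 2-fold rule with OD. The cytosolic MARS1 was at 241, 235 and 233 CPM in the control libraries, 229, 232 and 248 CPM with CoCl2 and 282, 272 and 257 CPM with OD. With CoCl2 it was not separable from control, at 0.0011 (95% interval -0.083 to 0.085, edgeR adjusted p = 0.981), and with library size alone its value was -0.50. It rose with OD, by a log2 fold change of 0.20 (SE 0.041, edgeR adjusted p = 3.58e-05). In GENCODE 44, 13.33% of the exonic bases of MARS1 overlap other genes, DDIT3 and ARHGAP9 among them and mostly on the other strand, and DDIT3 itself rose with both agents, with log2 fold changes of 1.47 and 0.78. The sources do not state whether counting used strand, and the part of DDIT3 reads in the MARS1 counts was not tested.

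TARS2, the mitochondrial threonyl-tRNA synthetase, was at 29.6, 28.1 and 27.9 CPM in the control libraries, 9.95, 12 and 12 CPM with CoCl2 and 28.5, 23.7 and 25.8 CPM with OD. Every CoCl2 library was far below the rest, whereas OD overlapped the control. For TARS2 the test against control gave a log2 fold change of -1.34 (SE 0.084, edgeR adjusted p = 1.21e-22) for CoCl2, and -0.13 (95% interval -0.27 to 0.0073, edgeR adjusted p = 0.0902) for OD. TARS1 of the cytosol was at 326, 332 and 324 CPM in the control libraries, 341, 327 and 333 CPM with CoCl2 and 362, 347 and 375 CPM with OD. Its CoCl2 libraries overlapped the control, at 0.028 (95% interval -0.052 to 0.11, edgeR adjusted p = 0.518), a value that turns to -0.48 with library size alone, and it rose slightly with OD, with a log2 fold change of 0.14 (SE 0.040, edgeR adjusted p = 0.00143). The related TARS3, a second cytosolic threonyl enzyme, ran from 11.5 to 14.8 CPM over all 9 libraries and passed the test in none of the comparisons.

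Isoleucyl enzymes fell in both compartments. IARS2 was at 327, 329 and 319 CPM in the control libraries, 145, 145 and 141 CPM with CoCl2 and 198, 201 and 209.6 CPM with OD. IARS1, of the multisynthetase complex, was at 163, 159.6 and 158 CPM in the control libraries, 65.6, 70.5 and 73.2 CPM with CoCl2 and 118, 116 and 121 CPM with OD. In both genes the groups separated in the order CoCl2, OD, control. For CoCl2 the change measured -1.18 (SE 0.042, edgeR adjusted p = 9.61e-36) on the log2 scale for IARS2 and -1.20 (SE 0.048, edgeR adjusted p = 6.87e-33) for IARS1. With OD it was -0.68 (SE 0.040, edgeR adjusted p = 1.74e-23) and -0.44 (SE 0.044, edgeR adjusted p = 2.38e-13) for IARS2 and IARS1. IARS1 is among the genes whose promoter windows are shown above.

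NARS2, the mitochondrial asparaginyl enzyme, was at 60.5, 62.0 and 57.3 CPM in the control libraries, 30.2, 26.9 and 27.3 CPM with CoCl2 and 43.0, 41.3 and 40.3 CPM with OD. All CoCl2 libraries were under all OD libraries, which were under all controls. NARS2 fell under both, with log2 fold changes of -1.09 (SE 0.061, edgeR adjusted p = 3.59e-25) for CoCl2 and -0.53 (SE 0.056, edgeR adjusted p = 7.93e-13) for OD. NARS1 in the cytosol was at 179, 169.6 and 168 CPM in the control libraries, 184, 179.7 and 185 CPM with CoCl2 and 179, 169 and 188 CPM with OD. The OD libraries overlapped the control. NARS1 did not pass the test with CoCl2, at 0.088 (95% interval 0.00040 to 0.17, edgeR adjusted p = 0.0585), where library size alone gave -0.42, nor with OD, at 0.053 (95% interval -0.033 to 0.14, edgeR adjusted p = 0.28).

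Of the genes for glutamate, glutamine and proline, EARS2 and PARS2 of the mitochondria fell with CoCl2, and EPRS1 and QARS1 of the cytosol rose with OD. EARS2 was at 78.9, 73.9 and 77.1 CPM in the control libraries, 35.0, 35.7 and 38.4 CPM with CoCl2 and 42.6, 39.3 and 42.8 CPM with OD, and PARS2, the mitochondrial prolyl enzyme, at 6.99, 6.91 and 7.91 CPM in the control libraries, 3.86, 3.02 and 3.36 CPM with CoCl2 and 5.31, 6.35 and 7.14 CPM with OD. EARS2 fell with both agents, with log2 fold changes of -1.07 (SE 0.057, edgeR adjusted p = 3.10e-26) and -0.88 (SE 0.054, edgeR adjusted p = 1.48e-22). PARS2 fell with CoCl2, with -1.08 (SE 0.14, edgeR adjusted p = 3.65e-10), while its OD libraries overlapped the control at -0.22 (95% interval -0.45 to 0.015, edgeR adjusted p = 0.0944). The bifunctional EPRS1 was at 334, 329 and 322 CPM in the control libraries, 378, 373 and 388 CPM with CoCl2 and 433, 421 and 446 CPM with OD, in the order control, CoCl2, OD without overlap. It rose with OD, with 0.40 (SE 0.039, edgeR adjusted p = 5.67e-14), and with CoCl2, with 0.21 (SE 0.039, edgeR adjusted p = 2.84e-06), a rise that turns to -0.30 with library size alone. QARS1, the glutaminyl enzyme of the complex, was at 236, 223 and 221 CPM in the control libraries, 249, 239 and 253 CPM with CoCl2 and 253, 253 and 243 CPM with OD. Each treatment lay just above the control in every library. Its log2 fold change was 0.13 (SE 0.041, edgeR adjusted p = 0.0045) with CoCl2, or -0.38 with library size alone, and 0.14 (SE 0.041, edgeR adjusted p = 0.00206) with OD.

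A pair of mitochondrial synthetases rose with CoCl2 where most of their set fell. RARS2 (chr6:87513459-87590028, minus strand), the mitochondrial arginyl enzyme whose loss causes a pontocerebellar hypoplasia, was at 48.6, 51.5 and 47.6 CPM in the control libraries, 92.9, 90.9 and 86.9 CPM with CoCl2 and 43.3, 43.6 and 43.8 CPM with OD. Every CoCl2 library was well above the rest, and every OD library was below the controls. RARS2 rose under CoCl2, with a log2 fold change of 0.87 (SE 0.053, edgeR adjusted p = 1.27e-23), and fell under OD, with -0.18 (SE 0.055, edgeR adjusted p = 0.00354). WARS2, the mitochondrial tryptophanyl enzyme, was at 11.7, 14.8 and 14.2 CPM in the control libraries, 24.8, 28.6 and 25.2 CPM with CoCl2 and 11.6, 13.6 and 11.3 CPM with OD. CoCl2 libraries were again highest, while OD overlapped the control. WARS2 rose with CoCl2, with 0.94 (SE 0.085, edgeR adjusted p = 1.16e-15), and was at -0.16 (95% interval -0.34 to 0.028, edgeR adjusted p = 0.131) with OD. YARS2 rose by 0.17 (SE 0.054) with CoCl2, but its value was -0.33 with library size alone, and it fell with OD (-0.36, SE 0.055).

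The cytosolic partners of RARS2 and WARS2 moved differently. RARS1, of the multisynthetase complex, was at 198, 213 and 208 CPM in the control libraries, 172, 183 and 173 CPM with CoCl2 and 161, 165 and 172 CPM with OD. Both treatments were below the control in all libraries, with log2 fold changes of -0.23 (SE 0.043, edgeR adjusted p = 1.82e-06) and -0.31 (SE 0.043, edgeR adjusted p = 2.08e-09). WARS1, known as an interferon-induced gene, was at 82.5, 84.7 and 87.4 CPM in the control libraries, 97.3, 95.3 and 96.5 CPM with CoCl2 and 159.7, 157 and 151 CPM with OD. OD libraries were highest without overlap. WARS1 rose with OD, with 0.88 (SE 0.045, edgeR adjusted p = 2.81e-26), and by 0.18 (SE 0.047) with CoCl2, a rise that turns to -0.32 with library size alone.

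**Figure D3:**
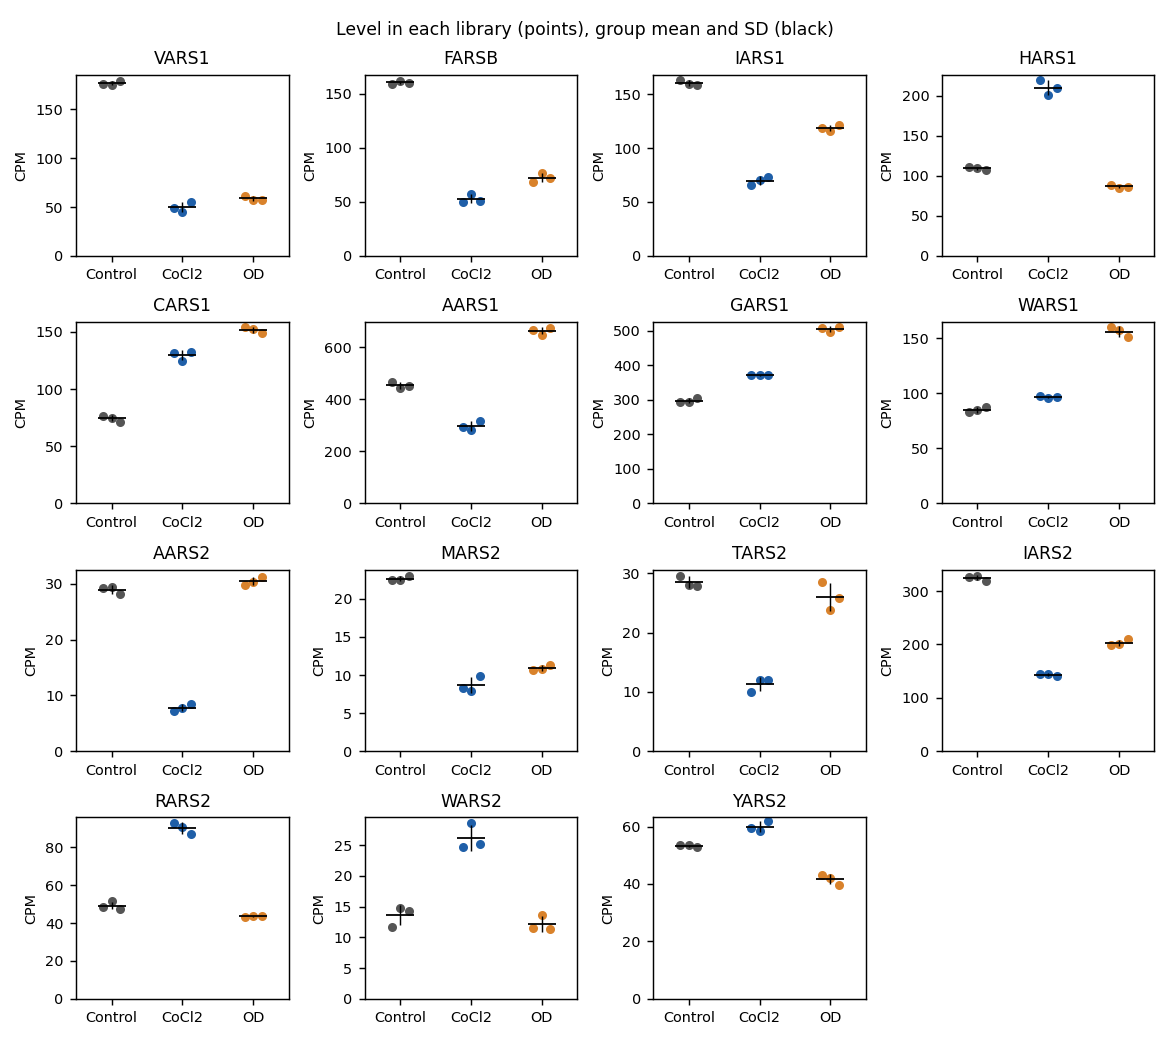
CPM (y axis, from 0, own scale in each panel) of 15 synthetase mRNAs in each library of Control (grey), CoCl2 (blue) and OD (orange), with the group mean and SD in black. RARS2, WARS2 and HARS1 have their CoCl2 libraries on top, CARS1, AARS1, GARS1 and WARS1 their OD libraries, and AARS2 and TARS2 have CoCl2 libraries far below the others.

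VARS1, the cytosolic valyl enzyme, and FARSB were the cytosolic members that fell furthest with each agent. The VARS1 gene lies at chr6:31777518-31795752 on the minus strand of GRCh38 (GENCODE 44), and its level was 177, 175 and 179 CPM in the control libraries, 49.1, 44.7 and 54.8 CPM with CoCl2 and 61.7, 57.4 and 57.3 CPM with OD. All treated libraries lay far below the control, and the CoCl2 libraries were all below the OD libraries. VARS1 fell under both, with log2 fold changes of -1.82 (SE 0.053, edgeR adjusted p = 3.08e-40) for CoCl2 and -1.59 (SE 0.050, edgeR adjusted p = 4.64e-37) for OD. The mitochondrial VARS2 was at 0.538, 0.343 and 0.673 CPM in the control libraries, 0.933, 0.774 and 0.524 CPM with CoCl2 and 0.500, 0.577 and 0.213 CPM with OD, with all groups overlapping. From so few counts a change was not detectable at this depth, with 0.51 (95% interval -0.27 to 1.28, edgeR adjusted p = 0.217) for CoCl2 and -0.21 (95% interval -1.02 to 0.60, edgeR adjusted p = 0.668) for OD, and 62.98% of its exonic bases overlap another gene of the same strand.

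FARSB, the beta subunit of the cytosolic phenylalanyl enzyme, was at 159.6, 162 and 160.1 CPM in the control libraries, 50.2, 57.7 and 51.1 CPM with CoCl2 and 68.7, 76.6 and 71.8 CPM with OD. FARSA, its alpha subunit, was at 97.0, 90.5 and 101 CPM in the control libraries, 39.6, 38.2 and 46.1 CPM with CoCl2 and 68.1, 64.7 and 65.1 CPM with OD. In both, the groups separated in the order CoCl2, OD, control. FARSB fell by a log2 fold change of -1.61 (SE 0.052, edgeR adjusted p = 9.31e-38) with CoCl2 and -1.15 (SE 0.049, edgeR adjusted p = 1.67e-30) with OD. For FARSA the values were -1.21 (SE 0.058, edgeR adjusted p = 1.18e-28) and -0.54 (SE 0.053, edgeR adjusted p = 5.60e-14). The mitochondrial FARS2, which works as a monomer, was at 13.3, 10.8 and 13.4 CPM in the control libraries, 12.4, 10.9 and 11.3 CPM with CoCl2 and 8.08, 8.21 and 7.77 CPM with OD. It overlapped the control with CoCl2, at -0.10 (95% interval -0.30 to 0.089, edgeR adjusted p = 0.311), and fell with OD, with -0.63 (SE 0.098, edgeR adjusted p = 7.60e-08).

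CARS1 and HARS1 were among the cytosolic members that rose with CoCl2. CARS1, the cysteinyl enzyme, was at 76.6, 74.9 and 71.4 CPM in the control libraries, 132, 125 and 132 CPM with CoCl2 and 154, 152 and 149 CPM with OD. The groups separated in the order control, CoCl2, OD, and the rise measured 0.80 (SE 0.047, edgeR adjusted p = 3.05e-24) on the log2 scale for CoCl2 and 1.03 (SE 0.046, edgeR adjusted p = 2.16e-29) for OD. The OD value lies just past the 2-fold threshold, and without Control replicate 3 the cytosolic set had 0 members called higher. Its mitochondrial partner CARS2 was at 67.1, 65.3 and 65.6 CPM in the control libraries, 37.1, 32.8 and 40.8 CPM with CoCl2 and 67.7, 69.5 and 67.1 CPM with OD. CoCl2 libraries were far below the rest, at -0.83 (SE 0.059, edgeR adjusted p = 4.36e-20), and OD libraries gave 0.046 (95% interval -0.061 to 0.15, edgeR adjusted p = 0.464).

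HARS1, the histidyl enzyme (chr5:140673035-140691537, minus strand, GENCODE 44), was at 111, 109 and 107 CPM in the control libraries, 219.6, 200.4 and 210.2 CPM with CoCl2 and 89.1, 85.0 and 85.8 CPM with OD. CoCl2 libraries were highest and OD libraries lowest, without overlap. HARS1 rose under CoCl2, with a log2 fold change of 0.94 (SE 0.044, edgeR adjusted p = 5.05e-29), and fell under OD, with -0.34 (SE 0.046, edgeR adjusted p = 2.95e-09). HARS2, the mitochondrial histidyl enzyme, starts head to head with HARS1 on chromosome 5, with starts 107 bases apart and overlapping ends on opposite strands, and was at 64.8, 63.0 and 61.7 CPM in the control libraries, 51.4, 47.4 and 50.4 CPM with CoCl2 and 68.8, 59.1 and 62.3 CPM with OD. It fell with CoCl2, with -0.34 (SE 0.057, edgeR adjusted p = 1.98e-07), while OD overlapped the control at 0.0050 (95% interval -0.10 to 0.11, edgeR adjusted p = 0.941). Of the exonic bases of HARS1, 8.46% overlap DND1, HARS2 or WDR55, and 1.24% overlap a gene of the same strand. Reads of the opposite-strand part cannot be assigned without strand, and those of the same-strand part cannot be assigned by strand.

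GARS1 and KARS1, which supply glycyl and lysyl enzymes to both compartments, moved apart. GARS1 was at 293, 294 and 306 CPM in the control libraries, 373, 371 and 371 CPM with CoCl2 and 508, 496 and 513 CPM with OD, and the groups separated in the order control, CoCl2, OD. It rose with OD, with 0.77 (SE 0.039, edgeR adjusted p = 1.48e-26), and with CoCl2, with 0.32 (SE 0.039, edgeR adjusted p = 4.76e-11), which turns to -0.18 with library size alone. KARS1 was at 478, 466 and 473 CPM in the control libraries, 283, 277 and 298 CPM with CoCl2 and 328, 317 and 316 CPM with OD, and both treatments lay below the control. KARS1 fell with both, with -0.72 (SE 0.040, edgeR adjusted p = 1.62e-25) and -0.56 (SE 0.039, edgeR adjusted p = 7.50e-20). Without this pair the median of the cytosolic set with CoCl2 stayed at 0.0011, the value of MARS1. GARS1 lies above that value and KARS1 below it, so leaving out both could not move the median.

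The remaining members changed by less than 2-fold in all comparisons. With CoCl2, SARS1 rose, with a log2 fold change of 0.81 (SE 0.045), as did LARS1, with 0.19 (SE 0.043), although LARS1 was at -0.32 with library size alone. YARS1, LARS2 and SARS2 fell, with -0.78 (SE 0.050), -0.76 (SE 0.058) and -0.51 (SE 0.18). With OD the values were 0.32 (SE 0.045) for SARS1, 0.13 (SE 0.043) for LARS1, -0.38 (SE 0.048) for YARS1, -0.72 (SE 0.055) for LARS2 and -0.59 (SE 0.17) for SARS2, all past the test. SARS2 ranged from 1.78 to 3.66 CPM, and 48.16% of its exonic bases overlap another gene of the same strand.

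Set directly against OD, CoCl2 gave higher levels of 3 members and lower levels of 4 by the 2-fold rule. By log2 difference, HARS1 (1.28, SE 0.045), WARS2 (1.09, SE 0.085) and RARS2 (1.05, SE 0.053) were higher, where 17.5% of all genes were. AARS2 (-1.95, SE 0.084), TARS2 (-1.20, SE 0.084) and AARS1 (-1.15, SE 0.042) were among the 4 lower members, where 23.8% of all genes were. The largest edgeR adjusted p among these 6 was 1.90e-18, for WARS2. With library size alone 0 members were called higher and 13 lower, and HARS1 was at 0.73, WARS2 at 0.55 and RARS2 at 0.50. By adjusted p alone, 2 cytosolic members (HARS1 and SARS1) were higher and 14 lower, and 4 mitochondrial members were higher and 10 lower, against 40.2% higher and 43.2% lower among all genes. SARS1, FARS2 and YARS2 were higher at 0.49, 0.52 and 0.53, but at -0.052, -0.021 and -0.017 with library size alone. LARS2 and QARS1 did not pass, at -0.039 (95% interval -0.16 to 0.081, edgeR adjusted p = 0.546) and -0.015 (95% interval -0.096 to 0.067, edgeR adjusted p = 0.743), and with size factors by the median of ratios the signs of LARS2 and QARS1 turned. The median was -0.19 in the cytosolic and -0.31 in the mitochondrial set, beside -0.054 over all genes. The libraries did not overlap in 30 members, against 83.8% of all genes.

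The ratio of cytosolic to mitochondrial counts within a library does not depend on its scaling. Taken as log2 of counts plus 1, it was computed for 18 pairs of genes for the same amino acid, of which those of EPRS1 and FARS2 share a gene. With CoCl2 it was higher than in every control library for 11 pairs and lower for 6, and only IARS1 to IARS2 overlapped, at -1.02 ± 0.0215 in control and -1.04 ± 0.0996 with CoCl2 (SD, n = 3). Among all single tested genes 83.4% did not overlap in this comparison, and the share over all pairs of genes was not computed. The median change over the pairs was 1.23. CARS1 to CARS2 moved most upward, from 0.19, 0.20 and 0.12 in the control libraries to 1.82, 1.92 and 1.69 with CoCl2, a difference of 1.64. The 6 lower pairs were those of FARSA and FARSB with FARS2, of RARS1, VARS1, WARS1 and YARS1, from -0.77 for WARS1 to WARS2 down to -2.35 for VARS1 to VARS2, where VARS2 has 4 to 15 counts.

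With OD the ratio was higher for 12 pairs, lower for 4 and overlapping for 2, with a median change of 0.53. Among all single genes 68% did not overlap between OD and control. EPRS1 to EARS2 was higher under both agents, by 1.28 with CoCl2 and 1.28 with OD. Tryptophanyl and histidyl pairs went opposite ways. WARS1 to WARS2 was at 2.65 ± 0.149 in control, 1.88 ± 0.129 with CoCl2 and 3.68 ± 0.137 with OD, whereas HARS1 to HARS2 was at 0.79 ± 0.00838, 2.08 ± 0.0168 and 0.45 ± 0.0769. Between CoCl2 and OD, 8 pairs were higher with CoCl2, 6 lower and 4 overlapping, with a median of 0.12. Of all single genes 83.8% did not overlap there.

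**Figure D4:**
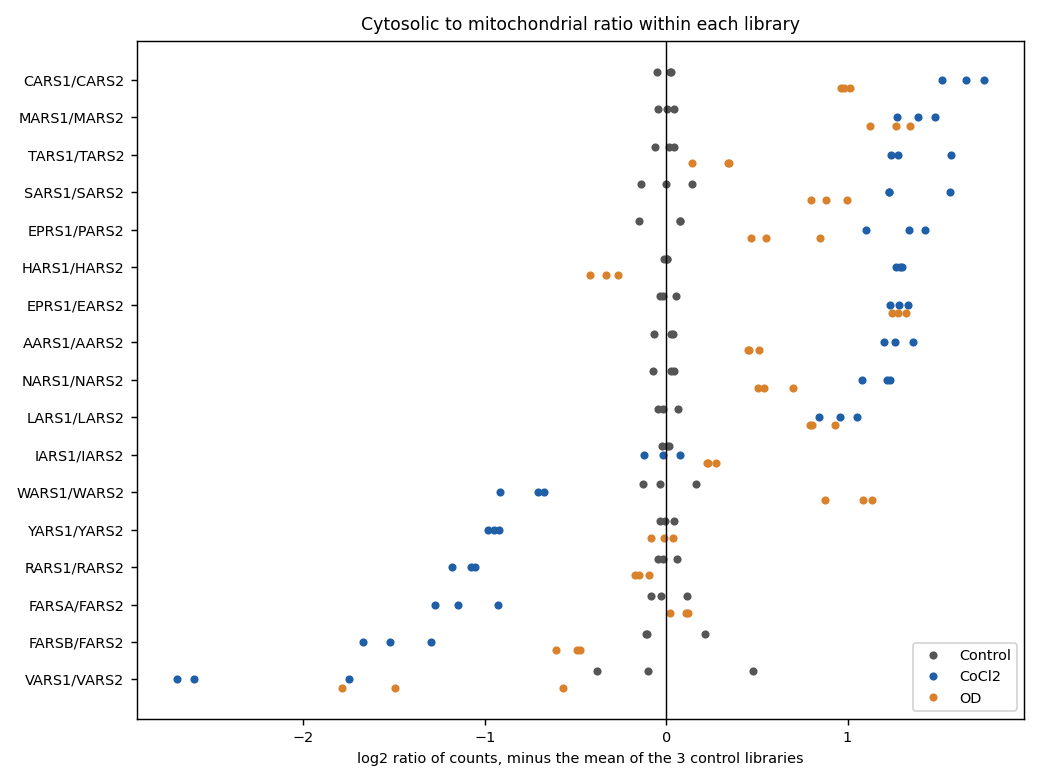
Log2 ratio of cytosolic to mitochondrial counts in each library, less the mean of the 3 control libraries (x axis), for 17 of the pairs (rows), with Control in grey, CoCl2 in blue and OD in orange. The blue points lie right of the grey in 10 of these pairs and left of them in 6, and the pairs of WARS1 and HARS1 have blue and orange points on opposite sides.

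As a share of all member counts, the mitochondrial set made up 19.1% ± 0.154 in control, 13.4% ± 0.105 with CoCl2 and 13.6% ± 0.0894 with OD (SD, n = 3). Both treatments thus lay below every control library, and without IARS2, the most abundant mitochondrial member, the shares were 13.7%, 10.4% and 10.0%. The members together took 0.573% to 0.579% of all counts in control, 0.332% to 0.348% with CoCl2 and 0.585% to 0.601% with OD. These last shares are of unscaled totals, without the TMM factors, which were lower with CoCl2 than in the other groups.

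The cytosolic members were also read by role. By adjusted p alone, 40.4% of all genes were higher and 42.8% lower with CoCl2, and 32.3% and 33.3% with OD, and the counts of each list are to be read against these shares. Of 12 cytosolic members commonly listed as ATF4 targets, 6 rose and 3 fell with CoCl2 by adjusted p alone (2 and 10 with library size alone), and 9 rose and 2 fell with OD. The median log2 fold change of these 12 was 0.14 for CoCl2, turning to -0.37 with library size alone, and 0.26 for OD. Of the 9 other cytosolic members 2 rose and 6 fell with CoCl2 (1 and 8 with library size alone), and 1 rose and 6 fell with OD, with medians of -0.72 and -0.34. The 8 enzymes of the multisynthetase complex had 3 rising and 4 falling with CoCl2 (0 and 8 with library size alone), and 4 and 3 with OD. The 2 structural classes were read over all 38 members, mitochondrial ones included. The class I enzymes (18 genes) had medians of -0.12 and -0.26, and class II enzymes (19 genes) of -0.60 and -0.13, for CoCl2 and OD.

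Genes that work beside the synthetases were read as lists. ATF4 itself was at 386 ± 14.5 CPM in control, 709 ± 34.8 with CoCl2 and 553 ± 15.6 with OD, and rose with both, with log2 fold changes of 0.88 (SE 0.041, edgeR adjusted p = 3.02e-29) and 0.52 (SE 0.041, edgeR adjusted p = 8.09e-18). Of 26 ATF4-linked genes, itself included, 18 rose and 7 fell with CoCl2 (13 and 11 with library size alone), and 22 rose and 2 fell with OD, with medians of 0.74 and 0.96. The largest changes with CoCl2 were in DDIT4, an inhibitor of mTORC1 signalling (4.16, SE 0.086), CTH, which makes cysteine (3.63, SE 0.080), PPP1R15A, a subunit of an eIF2α phosphatase (3.53, SE 0.048), and the cystine transporter gene SLC7A11 (3.43, SE 0.058). The same genes gave 4.04 (SE 0.085), 2.05 (SE 0.091), 1.03 (SE 0.048) and 2.12 (SE 0.060) with OD. These genes all rose, but the list did not move as 1. By the 2-fold rule 10 of the 26 were higher and 3 lower with CoCl2, against 19.9% and 23.4% of all genes. The counts were 7 and 5 with library size alone. For OD they were 11 and 0, against 9.09% and 4.16%. The study lists DDIT4 among core hypoxia genes that responded to both agents.

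All 3 scaffold genes of the multisynthetase complex fell with both agents. AIMP2 had log2 fold changes of -1.50 (SE 0.069) with CoCl2 and -0.70 (SE 0.061) with OD, AIMP1 of -0.45 (SE 0.045) and -0.82 (SE 0.045), and EEF1E1 of -0.75 (SE 0.19) and -1.30 (SE 0.19). The genes that complete charging in mitochondria, QRSL1, GATB and GATC for the glutamyl-tRNA amidotransferase and MTFMT for formylation of the initiator, also all fell, from -0.24 for QRSL1 to -1.41 for MTFMT with CoCl2, and from -0.35 to -0.73 for the same genes with OD. Of 78 mitochondrial ribosomal protein genes 77 were tested. With CoCl2 22 rose and 44 fell (9 and 62 with library size alone), with a median of -0.28, and with OD 3 rose and 66 fell, with a median of -0.48. Among all genes 40.4% rose and 42.8% fell with CoCl2 by this rule, and 32.3% rose and 33.3% fell with OD.

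Among 5 genes for tRNA export and delivery to the ribosome, 4 rose with CoCl2 and 0 fell, by edgeR's adjusted and unadjusted p and by DESeq2, but 2 rose and 3 fell with library size alone. Of all genes 40.4% rose with CoCl2 by adjusted p with TMM factors. With OD 1 of the 5 rose, EEF1A2, and 1 fell, TUFM, the elongation factor of mitochondria (-0.60, SE 0.042). The gene that did not pass with CoCl2 was TSFM, at -0.66 (95% interval -1.41 to 0.094, edgeR adjusted p = 0.0993). EEF1A1, the main elongation factor that carries charged tRNA, rose by 1.20 (SE 0.043) with CoCl2 and was at -0.042 (95% interval -0.13 to 0.042, edgeR adjusted p = 0.39) with OD, and EEF1A2 rose by 1.03 (SE 0.12) with CoCl2 and 2.23 (SE 0.10) with OD. Of 6 genes for editing or release of mischarged or stalled tRNA, 5 were tested. By adjusted p alone 3 rose and 2 fell with CoCl2 (1 and 2 with library size alone), against 40.4% and 42.8% of all genes. For OD 1 rose and 4 fell, against 32.3% and 33.3%. PTRH2, a mitochondrial peptidyl-tRNA hydrolase, rose by 2.12 (SE 0.056) with CoCl2 and 0.28 (SE 0.062) with OD. The D-aminoacyl-tRNA deacylase genes DTD1 and DTD2 fell, with -1.85 (SE 0.088) and -1.60 (SE 0.17) with CoCl2 and -1.12 (SE 0.076) and -1.15 (SE 0.15) with OD. AARSD1, at 22 to 70 counts, was at 0.49 (SE 0.19) with CoCl2 and -1.05 (SE 0.22) with OD.

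The size of the CoCl2 changes depended on the scaling. Another scaling shifts all members of a comparison by nearly the same amount, so their order was bound to stay nearly the same. With library size alone the log2 fold change was -2.39 for AARS2, -1.69 for IARS2, 0.44 for HARS1, 0.43 for WARS2 and 0.37 for RARS2. The 9 members whose sign turned were EPRS1, QARS1, TARS1, LARS1, GARS1, MARS1, WARS1, NARS1 and YARS2, all of them between 0 and 0.32 with TMM factors. HARS1, WARS2, RARS2, SARS1 and CARS1 stayed above 0.

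**Figure D5:**
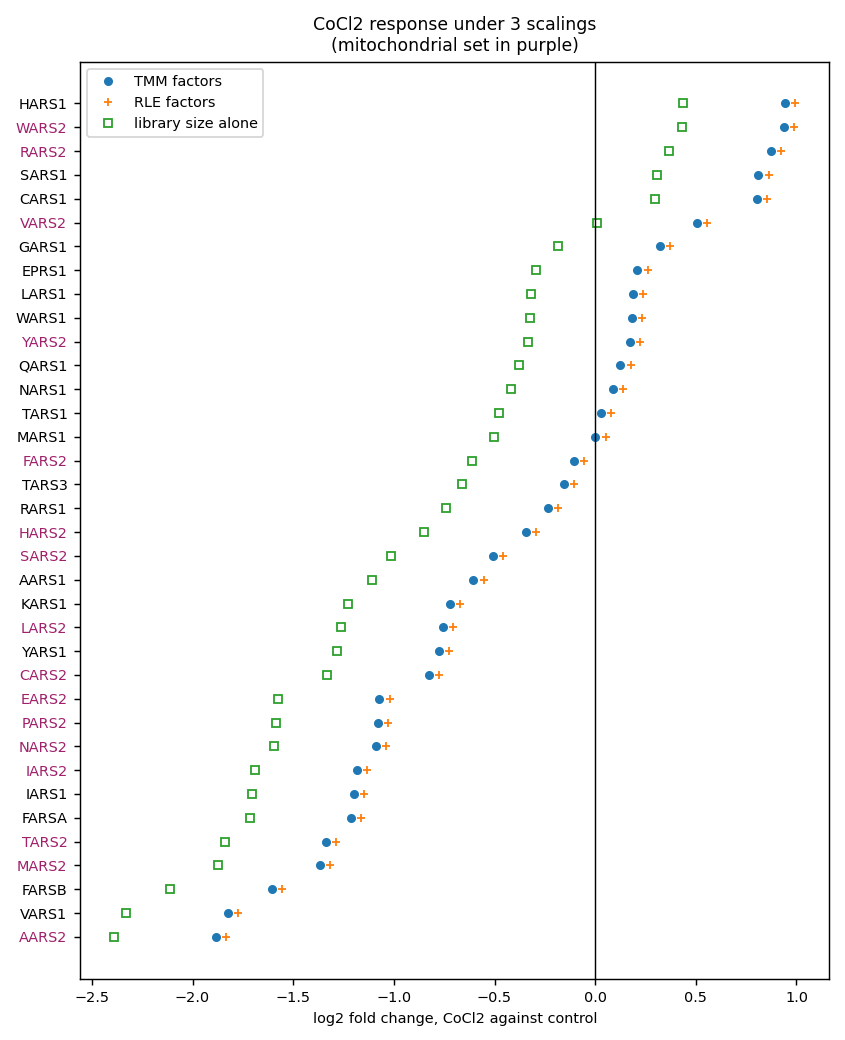
Log2 fold change of 36 members for CoCl2 against control (x axis) with TMM factors (filled circles), size factors by the median of ratios (crosses) and library size alone (open squares), 1 row per gene with mitochondrial members named in purple. The squares lie left of the circles in every row, and 9 members with circles right of 0 have squares left of it.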

How the data were processed

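RNA of 9 uCaco-2 cultures (Control, CoCl2 and OD, 3 biological replicates each) was sequenced by the authors as single-end 75-nt reads of stranded mRNA libraries. Per the labels and the study's methods, reads were checked with FastQC 0.11.9, trimmed with cutadapt 2.10 and aligned with STAR 2.7.5b to GRCh38.p13 with GENCODE release 34. The deposited values are whole-number read counts per gene symbol, not normalized. The counting tool and its strand setting are not given in the sources used here. The authors tested with DESeq2, at an adjusted p under 0.05 and a change of more than 2-fold.

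Here edgeR 4.0.16 (R 4.3.3; glmQLFit with robust estimation, glmQLFTest, TMM factors) was fitted over all 9 libraries to the 15944 of 60591 symbols that passed filterByExpr, with Benjamini-Hochberg adjustment over all of them, and the 2-fold thresholds of the authors were kept. The script was tested on simulated data. CPM are counts per 1000000 of the TMM-scaled library size. Each SE was derived as the size of the log2 fold change over the square root of edgeR's F statistic. The 95% intervals were built from these SEs with the t distribution, so both are approximations. Totals of 15998136 to 24209427 counts per library give at least 100 counts per library for every member but PARS2, SARS2 and VARS2. Replicates differed beyond counting error (chi-square per degree of freedom 1.82 to 3.32), and no libraries were duplicates. P-values rest on the spread between these 3 cultures per group, pooled over the 3 groups and drawn by edgeR toward that of other genes.

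Positions and overlaps are from GENCODE 44 (GRCh38), promoters from RefSeq (GRCh38.p14). Values in every library are given for members called by the 2-fold rule in any comparison (at most the 10 largest per comparison and set), for their partner of the same amino acid, and for EPRS1, GARS1, KARS1, QARS1, EARS2 and PARS2. From the lists of related genes at most 4 of the most changed are named, and the ribosomal list is given by counts. MARS1 has its overlap with DDIT3 stated, a gene named after its values were seen. Of the 38 members, 36 are described singly, and the others are counted in the sets but are not reported here. Members and lists were chosen with earlier results of these data known. Of 14 pseudogenes of members in the table, the highest count was 12. Alternatives were size factors by the median of ratios, library size alone, DESeq2 1.42.0, 2 other count filters, 6-library fits, the replicate block, each library left out, and other offsets for the ratios. After seeing the data, 3 more were added that leave out GARS1 and KARS1, SARS2 and VARS2, or IARS2.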

Additional observations from a re-analysis of the deposited data

Results flagged for a closer look

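In 3 members the agents moved the level in opposite directions, with a called difference between CoCl2 and OD of more than 2-fold. HARS1 rose with CoCl2 and fell with OD, and its log2 difference of CoCl2 from OD was 1.28. RARS2 did the same, with a log2 difference of 1.05. AARS1 fell with CoCl2 and rose with OD, with -1.15. Each difference was tested directly, with edgeR adjusted p of 1.08e-35 for HARS1, 1.40e-27 for RARS2 and 4.47e-35 for AARS1, and in each gene the 3 groups did not overlap in any library. With library size alone the log2 differences were 0.73 for HARS1, 0.50 for RARS2 and -1.70 for AARS1, so the first 2 were no longer past 2-fold. RARS2 was also just short of 2-fold without the count filter (0.98) and with at least 10 counts in every library (0.997).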

How the results depend on the processing

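Library size alone moved most. For CoCl2 against control it gave medians of -0.50 (cytosolic) and -1.33 (mitochondrial), 8 cytosolic members called lower, and reversed EPRS1 (-0.30), QARS1 (-0.38), TARS1 (-0.48), LARS1 (-0.32), GARS1 (-0.18), MARS1 (-0.50), WARS1 (-0.32), NARS1 (-0.42) and YARS2 (-0.33). For OD against control it gave a mitochondrial median of -0.32. For CoCl2 against OD it gave medians of -0.74 and -0.86, 0 cytosolic and 0 mitochondrial members called higher, 6 and 7 called lower, and reversed SARS1 (-0.052), LARS1 (-0.49), RARS1 (-0.46), NARS1 (-0.51), FARS2 (-0.021), YARS2 (-0.017) and SARS2 (-0.47). By construction it leaves out the factors that differ between CoCl2 and the other groups. Size factors by the median of ratios gave a cytosolic median of 0.052 for CoCl2 against control, and 0.029 for QARS1 and 0.0045 for LARS2 against OD.

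Without the count filter the CoCl2 medians of the cytosolic set were -0.064 against control and -0.26 against OD, with TARS1 at -0.038 and MARS1 at -0.064 against control, LARS1 at -0.0059 and NARS1 at -0.032 against OD, and 2 cytosolic members called lower and 1 mitochondrial member called higher against OD. With at least 10 counts in every library, CoCl2 against control gave a cytosolic median of -0.027, TARS1 -0.00047 and MARS1 -0.027. OD against control gave a mitochondrial median of -0.42. CoCl2 against OD gave NARS1 -0.019, 2 cytosolic members lower and 1 mitochondrial member higher. In 6-library fits MARS1 was -0.012 with CoCl2. The cause of these shifts was not tested. Without SARS2 and VARS2 the mitochondrial median with CoCl2 was -1.07, and without IARS2 the mitochondrial shares were 13.7%, 10.4% and 10.0%.

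Leaving out each library in turn gave, for CoCl2 against control, cytosolic medians of -0.033 to 0.020 and MARS1 values of -0.033 to 0.028. For OD against control it gave 0 to 1 cytosolic members called higher (0 without Control replicate 3), mitochondrial medians of -0.47 to -0.32, and values of -0.020 to 0.066 for TARS3, -0.058 to 0.057 for HARS2 and -0.47 to 0.079 for VARS2. For CoCl2 against OD it gave -0.042 to 0.013 for QARS1, -0.014 to 0.063 for NARS1, -0.11 to 0.019 for LARS2 and -0.0048 to 0.20 for SARS2. Genes whose direction turned this way lay near 0 or had few counts.

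Replicate numbers were taken from the sample titles. Deviations of libraries with the same number correlated at -0.029 to 0.094, and those with different numbers at -0.10 to 0.090. With 3 libraries per group, these values cannot exclude a batch shared by libraries of the same number. With the replicate block the mitochondrial median for CoCl2 against control was -0.83, and 4 cytosolic and 8 mitochondrial members were called lower. Over all alternatives, single members kept direction and side of the threshold in 1649 values, turned in 41, newly passed in 27 and no longer passed in 8. Depth limits VARS2, SARS2 and PARS2.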
